A study of Mus musculus with 11 samples.

Results

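MaSC/basal cells were compared with mature luminal (ML) cells of the mouse mammary gland in 6 of the 11 RNA-seq libraries of the series, 3 labelled Basal and 3 labelled ML. The libraries were chosen by these labels alone. Cells of both populations were sorted from the lineage-negative fraction of mammary glands of wild-type virgin FVB/N females, given as 8 weeks old in the labels. MaSC/basal cells were taken from the CD24+CD29hi gate, which is enriched for mammary stem cells and also holds myoepithelial cells, and ML cells from the CD24+CD29loCD61- gate, so each library is a mixture enriched for its population. The 3 libraries of CD24+CD29loCD61+ luminal progenitor-enriched (LP) cells from the same kind of mice are used where a difference has to be set apart from features that both luminal populations share. According to the labels, the MaSC/basal libraries were made in batch 1 (replicate 1) and batch 2 (replicates 2 and 3), and ML and LP replicates 1, 2 and 3 in batches 1, 2 and 3. Batch 3 therefore holds no MaSC/basal library. The submitted name of MaSC/basal replicate 1 contains the term p53, although its genotype label is wild type.

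The mammary duct is a bilayer. The outer, basal layer consists of contractile myoepithelial cells that rest on the basement membrane and squeeze milk forward in response to oxytocin, and it contains the cells with stem cell activity in transplantation. The inner, luminal layer lines the duct and contains cells with receptors for oestrogen, progesterone and prolactin, which pass the systemic hormone signal to their neighbours through secreted ligands such as amphiregulin, WNT4 and RANKL, and progenitors that give rise to milk-producing alveolar cells.

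Between 51368625 and 57160817 reads per MaSC/basal library and between 21311068 and 75795034 per ML library were assigned to genes. ML replicate 3 was the shallowest of the 6. Of the 14919 genes with more than 0.5 CPM (read counts relative to library size) in at least 3 of the 6 libraries, 8595 (57.6%) differed at an adjusted p under 0.05 by edgeR's quasi-likelihood test with Benjamini-Hochberg adjustment, which is the test behind every adjusted p below. Of all genes tested, 4310 (28.9%) were higher in ML cells and 4285 (28.7%) in MaSC/basal cells, and the median log2 fold change was 0.01. At an adjusted p under 0.001 and a fold change over 2 on the log2 scale, 1179 genes (7.90%) were higher in ML cells and 1514 (10.1%) in MaSC/basal cells. Within the batches that hold both populations, 8593 of the 8595 genes had the same sign in batch 1 and in batch 2. These genes were called with the same libraries, so this agreement is largely set by the calls and is not separate support. A list's count in each direction is to be read against the shares of all genes tested. Fold changes are given on the log2 scale as ML minus MaSC/basal, so that positive values are higher in ML cells. The value after ± is a standard error calculated back from the fold change and the F statistic of the test. Levels are CPM per library with TMM scaling over the 9 sorted libraries. In sorted populations measured in bulk, fewer cells of a type and less RNA per cell cannot be told apart.

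The labels were first compared with a marker pair for each population. Keratin 14 (*Krt14*, chr11:100203162-100207510 in GRCm38), a filament protein of basal cells, was counted at 4067, 4614 and 4535 CPM in the MaSC/basal libraries and at 22.4, 26.4 and 105 CPM in the ML libraries. Smooth muscle actin (*Acta2*, chr19:34240336-34255585) was at 4957, 7092 and 6262 CPM against 12.1, 26.9 and 34.4 CPM. Neither gene overlapped between the populations, and the fold changes were -6.42 ± 0.68 for *Krt14* and -7.95 ± 0.50 for *Acta2*. The *Krt14* difference was the more variable of these. ML replicate 3 stood about 4-fold above the other ML libraries, and without that library it was -7.46. The oestrogen receptor gene *Esr1* (chr10:4611989-5005633) had 11.1, 10.6 and 11.8 CPM in MaSC/basal cells and 189, 149 and 193 CPM in ML cells. The progesterone receptor gene *Pgr* (chr9:8898900-8968611) had 21.1, 21.0 and 19.5 CPM against 475, 290 and 500 CPM. All 4 markers separated the 6 libraries as their labels do, and none was absent from the other population.

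Prolactin receptor (*Prlr*, chr15:10177238-10349190) showed the largest difference of the hormone receptors. It was counted at 23.5, 19.3 and 19.9 CPM in MaSC/basal cells and at 4115, 2756 and 4579 CPM in ML cells, a 183-fold difference of the means and a fold change of 7.53 ± 0.30 (adjusted p = 5.41e-07). *Pgr* was 20.5-fold and *Esr1* 15.8-fold higher in ML cells, with fold changes of 4.37 ± 0.25 and 3.99 ± 0.17. Scaled to exon length, which allows genes to be compared with each other, the 3 receptors ranked *Prlr* (285 RPKM), *Pgr* (61.2 RPKM) and *Esr1* (40.9 RPKM) in ML cells, whereas they all lay between 1.56 and 2.98 RPKM in MaSC/basal cells.

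The other hormone receptors did not share this pattern. Of the 16 receptors tested, 7 were higher in ML cells, 6 were higher in MaSC/basal cells and 3 were not called, and the median of the list was 0.06. Retinoic acid receptor alpha (*Rara*, 0.98 ± 0.14), the mineralocorticoid receptor (*Nr3c2*, 0.99 ± 0.15) and thyroid hormone receptor alpha (*Thra*, 0.85 ± 0.18) were modestly higher in ML cells. The glucocorticoid receptor (*Nr3c1*) was lower in ML cells, at 46.6, 59.1 and 41.7 CPM against 105, 104 and 117 CPM (-1.13 ± 0.16). The receptor for insulin-like growth factor 1 (*Igf1r*, a mean of 58.5 against 236 CPM), thyroid hormone receptor beta (*Thrb*, -1.16 ± 0.23) and retinoic acid receptor beta (*Rarb*, -1.62 ± 0.31) were also lower. The calls for growth hormone receptor (*Ghr*), vitamin D receptor (*Vdr*) and insulin receptor (*Insr*) were marginal, at adjusted p = 0.0399, 0.0429 and 0.0137, and each was lost with at least 1 library left out and with the batch as a replicate block. *Esr2*, the other oestrogen receptor gene, had at most 0.386 CPM in any of the 6 libraries and was not tested.

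To ask which of these differences belong to ML cells and which to both luminal populations, ML cells were compared with LP cells in a fit of the 9 sorted libraries (15229 genes tested). In this comparison 2732 genes (17.9%) were higher in ML cells and 2153 (14.1%) in LP cells, so that 55.9% of the calls were higher in ML cells, and this share was 70.7% without TMM scaling, which moved the median of all genes to 0.19. The comparison uses the same ML libraries as the one with MaSC/basal cells, so the values of each are given side by side and not as support for one another. *Esr1* was at 34.0, 53.4 and 63.8 CPM in LP cells, *Pgr* at 43.4, 68.3 and 113 CPM, and *Prlr* at 469, 810 and 1200 CPM. All 3 receptors were thus above every MaSC/basal library in LP cells and below every ML library, and ML exceeded LP cells by 1.81 ± 0.22, 2.49 ± 0.33 and 2.21 ± 0.33. The luminal keratins gave the opposite picture. *Krt8* was counted at 299, 380 and 340 CPM in MaSC/basal cells, 4575, 4422 and 3692 CPM in ML cells and 3647, 3551 and 4613 CPM in LP cells, and *Krt18* at 78.1, 131 and 83.1 CPM, 3268, 3313 and 3015 CPM, and 3095, 2937 and 3763 CPM. Against MaSC/basal cells the keratins were higher in ML cells by 3.64 and 5.04, and between ML and LP cells their libraries overlapped, with fold changes of 0.10 and -0.03 (adjusted p = 0.719 and 0.935).

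**Figure D1:**
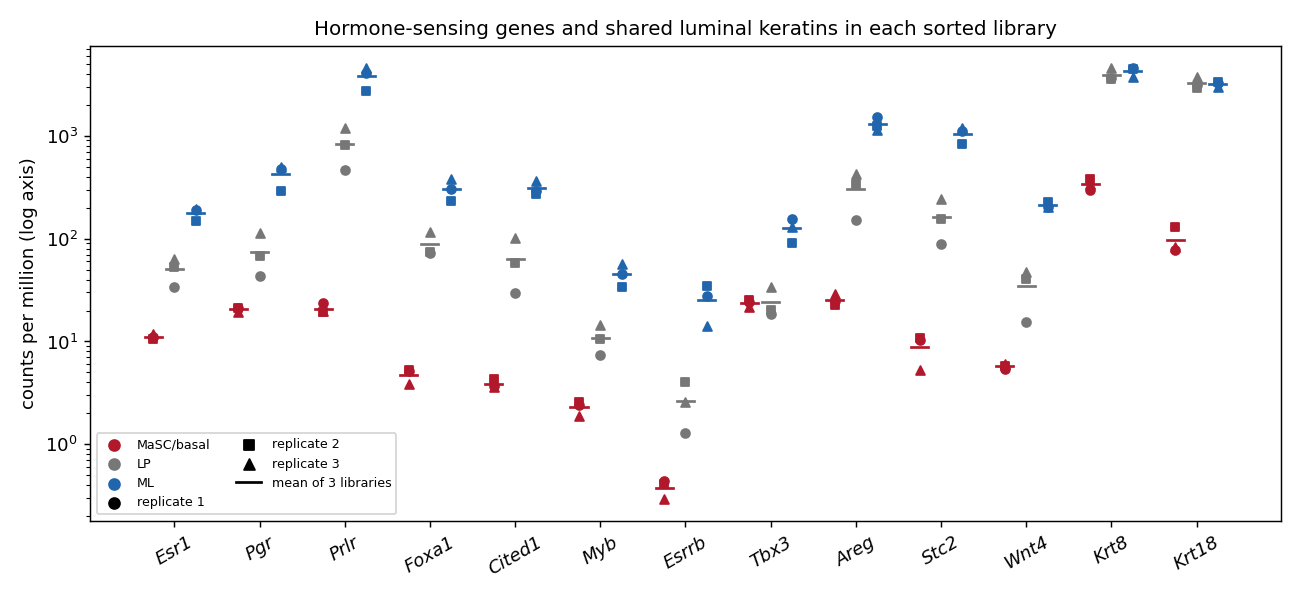
Level of 11 hormone-sensing genes and 2 luminal keratins in each MaSC/basal (red), LP (grey) and ML (blue) library, in CPM on a log axis, with a bar at the mean of 3 libraries. The ML libraries lie above all LP and MaSC/basal libraries for the hormone-sensing genes, whereas ML and LP libraries overlap for *Krt8* and *Krt18*.

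Transcription factors known from hormone-receptor-positive luminal cells differed in both directions. Of 16 tested, 10 were higher in ML cells, 4 were higher in MaSC/basal cells and 2 were not called, with a median of 1.26. *Foxa1*, a pioneer factor that opens chromatin for the oestrogen receptor, was at 5.13, 5.27 and 3.82 CPM in MaSC/basal cells and 301, 233 and 380 CPM in ML cells (6.02 ± 0.27). *Cited1*, a coactivator of the oestrogen receptor, was at 3.65, 4.34 and 3.64 CPM against 289, 274 and 361 CPM (6.32 ± 0.21). *Esrrb*, an orphan receptor related to the oestrogen receptors, was at 0.436, 0.411 and 0.294 CPM against 27.5, 34.8 and 14.2 CPM (6.07 ± 0.40). In all 3 genes the lowest ML library exceeded the highest MaSC/basal library by more than 30-fold. *Myb* (4.30 ± 0.25), *Spdef* (3.49 ± 0.32), *Batf* (1.93 ± 0.23) and *Tbx3* (2.41 ± 0.21), a T-box factor needed for mammary gland formation, were also higher in ML cells.

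In the comparison with LP cells, 7 of these 16 factors were higher in ML cells and 2 in LP cells. The ML excess over LP cells was 3.25 ± 0.43 for *Esrrb*, 2.29 ± 0.36 for *Cited1*, 2.06 ± 0.27 for *Myb* and 1.80 ± 0.24 for *Foxa1*. *Tbx3* differed from the others in that LP cells (18.5, 20.4 and 33.6 CPM) were at the level of MaSC/basal cells (24.3, 25.5 and 21.7 CPM), with ML cells above both at 156, 91.1 and 130 CPM. *Gata3*, which specifies the luminal lineage, was higher in ML than in MaSC/basal cells (0.96 ± 0.17), and ML and LP libraries overlapped (-0.11 ± 0.16, adjusted p = 0.620). *Xbp1*, a factor of the secretory pathway, was likewise higher in ML than in MaSC/basal cells (1.56 ± 0.16), and it was not called against LP cells (-0.31 ± 0.14), except by DESeq2's Wald test (-0.35, adjusted p = 0.0472), although all ML libraries (253 to 299 CPM) lay below all LP libraries (340 to 346 CPM). On the MaSC/basal side were *Id4*, an inhibitor of helix-loop-helix factors (81.3, 115 and 46.3 CPM against 0.961, 0.836 and 1.91 CPM, -6.12 ± 0.47), *Tbx2* (-5.06 ± 0.29), *Tfap2c* (-2.37 ± 0.26) and *Runx1* (-1.05 ± 0.17). The receptor coregulators showed few differences, with 3 of 15 higher in ML cells and 2 in MaSC/basal cells, and 1 in each direction with the batch as a replicate block. The exceptions in size were *Trps1*, a GATA-type repressor (2.69 ± 0.18), which was also high in LP cells, and *Ncoa1*, a steroid receptor coactivator (-1.37 ± 0.13).

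Promoter windows of 300 bases (250 before to 50 after a RefSeq start site, GRCm38.p6) were searched on both strands for the letters TGTTTAC, the core bound by forkhead factors such as FOXA1. The letters were present in 3.65% of all 32851 windows and in 4.05% of the 27025 genes with a window. They were present in 2 of the 13 transcription factors of the list with a window (*Foxa1* itself and *Myb*), and in 1 of 13 hormone receptors (*Prlr*). The stretches around the match are shown for *Prlr* and *Foxa1*, the receptor with a match and a factor with a match whose ML libraries all lay far above the MaSC/basal libraries, with the core in capitals, in the direction of transcription. They lie at chr15:10223661-10223727 on the plus strand and chr12:57546216-57546282 on the minus strand. The first base of the match is 215 and 141 bases before the start site of the window. For *Prlr* this is an internal RefSeq start site, since its window (chr15:10223656-10223955) lies inside the gene and not at its first base.
Prlr: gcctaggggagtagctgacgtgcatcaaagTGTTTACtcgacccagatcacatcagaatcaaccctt
Foxa1: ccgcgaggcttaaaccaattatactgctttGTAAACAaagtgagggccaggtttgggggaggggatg
In *Foxa1* the core reads on the opposite strand. The letters GGTCA, an arm of the oestrogen response element, searched on both strands, were present in 43.6% of all genes with a window, in 9 of 13 receptors, in 6 of 13 factors and in 7 of the 14 oestrogen targets with a window, and the full palindromic element was present in 23 of all windows and in none of these. These matches describe letters near start sites and are not evidence of binding.

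Among genes known as targets of the oestrogen receptor, *Stc2*, *Areg*, *Pgr* and *Myb* were higher in ML cells by more than 4 on the log2 scale, and *Xbp1* and *Rara* by less. *Stc2*, a secreted glycoprotein, was at 10.3, 10.8 and 5.27 CPM in MaSC/basal cells and 1107, 834 and 1201 CPM in ML cells (6.91 ± 0.37), with 88.3, 154 and 241 CPM in LP cells. *Areg*, which encodes the EGF receptor ligand amphiregulin, was at 24.9, 22.6 and 28.8 CPM against 1525, 1245 and 1145 CPM (5.69 ± 0.22), with 151, 338 and 428 CPM in LP cells. No LP library reached the lowest ML library in either gene. Of the 16 targets tested, 6 were higher in ML cells, 3 were higher in MaSC/basal cells and 7 were not called, with a median of 0.28. The 3 targets higher in MaSC/basal cells were the chemokine gene *Cxcl12* (-4.25 ± 0.28), *Igfbp4* (-3.83 ± 0.20), which binds insulin-like growth factors, and the receptor kinase gene *Ret* (-2.02 ± 0.36). *Greb1*, an oestrogen receptor cofactor, was between 1.43 and 3.05 CPM in all 6 libraries, and the cyclin gene *Ccnd1* was between 223 and 277 CPM. *Tff1* and *Tff3* had no read in any of them.

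Of 10 targets of the progesterone and glucocorticoid receptors, 7 were higher in ML cells and 1 in MaSC/basal cells, with a median of 1.84. Against LP cells, 2 of the 10 were higher in ML cells and 4 in LP cells, with a median of -0.55. *Wnt4*, a secreted signal downstream of progesterone, was at 5.35, 5.76 and 6.10 CPM in MaSC/basal cells, 205, 228 and 205 CPM in ML cells and 15.4, 40.6 and 47.7 CPM in LP cells. It was higher in ML than in MaSC/basal cells by 5.22 ± 0.16 and than in LP cells by 2.62 ± 0.34. *Tnfsf11*, which encodes RANKL, the other progesterone-dependent signal, varied most: it was at 0.402, 0.392 and 0.202 CPM in MaSC/basal cells and at 0.741, 6.34 and 15.1 CPM in ML cells, from 27, 493 and 348 reads. The libraries did not overlap, and the call (4.47 ± 0.95, adjusted p = 0.00379) held in the 12 alternatives that tested the gene. Without any 1 ML library it fell under the expression filter, so its dependence on single ML libraries was not tested. The difference was 0.46 within batch 1 and 3.11 within batch 2, on log2 of CPM plus 0.5. Calcitonin (*Calca*), which marks progesterone response in luminal cells, was at 1.36, 0.598 and 0.477 CPM against 5.25, 1.27 and 3.07 CPM. The groups overlapped, and its call (adjusted p = 0.0177) was lost when ML replicate 1, MaSC/basal replicate 2 or MaSC/basal replicate 3 was left out. The glucocorticoid targets *Fkbp5* (1.69 ± 0.30), *Tsc22d3* (1.67 ± 0.15) and *Zbtb16* (3.27 ± 0.46) were higher in ML than in MaSC/basal cells, while the receptor itself was lower. Against LP cells, however, *Fkbp5* was lower in ML cells (-1.28 ± 0.30).

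Secreted ligands were found on both sides. Of 35 paracrine ligands tested, 11 were higher in ML cells and 13 in MaSC/basal cells, with a median of -0.27. Beside *Areg* and *Wnt4*, ML cells had more *Btc* (betacellulin, another EGF receptor ligand, 5.31 ± 0.37), *Inhbb* (an activin subunit, 4.43 ± 0.17), *Wnt7b* (4.37 ± 0.21) and *Wnt5a* (281, 164 and 197 CPM against 38.6, 39.7 and 21.0 CPM, 2.70 ± 0.30). *Wnt5a* and *Wnt7b* also exceeded LP cells, by 2.15 ± 0.35 and 1.58 ± 0.21, and *Inhbb* did not (-0.31 ± 0.14). MaSC/basal cells had more of the WNT ligands *Wnt10a* (105, 87.9 and 110 CPM against 0.275, 0.347 and 1.08 CPM, -7.67 ± 0.43) and *Wnt6* (-7.30 ± 0.41). They also had more of the Notch ligands *Dll1* (-6.70 ± 0.36), *Jag2* (-5.67 ± 0.45) and *Jag1* (-2.33 ± 0.32), of *Nrg1*, the ligand of the ERBB3 and ERBB4 receptors (-5.89 ± 0.46), and of *Bmp7* (-6.39 ± 0.32). The EGF receptor ligands *Ereg* (epiregulin, 41.7, 37.8 and 69.5 CPM against 2.36, 1.62 and 1.65 CPM, -4.72 ± 0.30) and *Tgfa* (-2.16 ± 0.22) were also higher in MaSC/basal cells. WNT and EGF receptor ligands were therefore present on both sides, with different members.

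Receptors for these ligands were called more often on the MaSC/basal side, with 24 of 40 higher there and 11 higher in ML cells (median -1.30). The WNT-enhancing R-spondin receptors *Lgr5* (60.7, 105 and 68.2 CPM against 3.21, 2.14 and 2.99 CPM, -4.83 ± 0.30), *Lgr4* (-3.18 ± 0.14) and *Lgr6* (-3.10 ± 0.29) were higher in MaSC/basal cells, as were *Fzd7* (-3.01 ± 0.31) and 6 other frizzled genes. *Fzd10*, *Fzd4* and *Fzd6* were higher in ML cells, by 1.55, 1.58 and 0.90. *Egfr*, the receptor for amphiregulin, was at 141, 172 and 194 CPM in MaSC/basal cells and 31.9, 44.5 and 26.6 CPM in ML cells (-2.29 ± 0.22), so that *Areg* was higher in ML cells and its receptor in MaSC/basal cells. The RANK gene *Tnfrsf11a* showed the same arrangement with *Tnfsf11* (-2.14 ± 0.22), and LP cells were also above ML cells, at 43.0, 22.6 and 37.0 CPM against 5.11, 8.10 and 5.80 CPM in ML cells. The neuregulin receptors *Erbb3* (4.64 ± 0.17) and *Erbb4* (4.08 ± 0.43) were on the ML side and their ligand *Nrg1* on the MaSC/basal side. *Notch3* was higher in ML cells by 3.86 ± 0.18. *Fgfr2*, a receptor for fibroblast growth factors, was at 973, 682 and 1178 CPM in ML cells, above all libraries of both other populations, the highest of which was an LP library at 319 CPM.

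**Figure D2:**
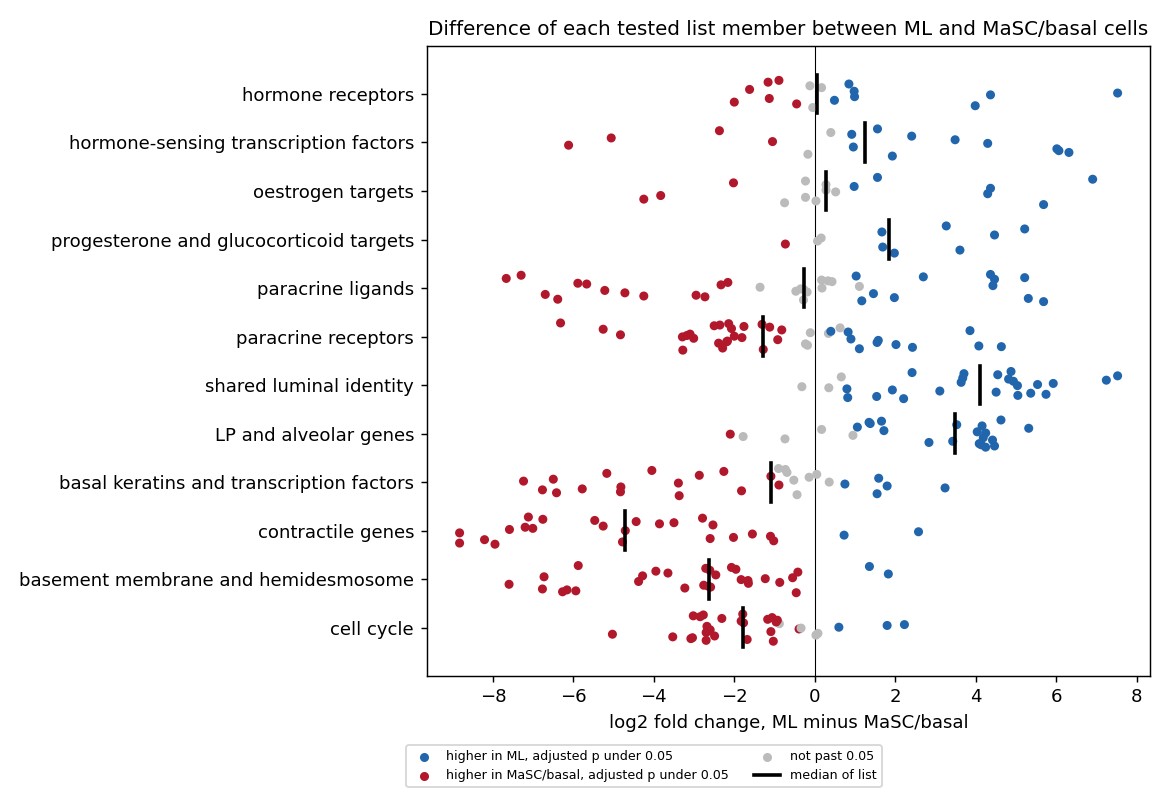
Log2 fold change of every tested member of 12 gene lists between ML and MaSC/basal cells, with members higher in ML cells at an adjusted p under 0.05 in blue, members higher in MaSC/basal cells in red, members not past 0.05 in grey and the median of each list as a black bar. The contractile list is centred at -4.71 and the shared luminal list at 4.11, while hormone receptors lie on both sides of 0.

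When genes were ranked by the smaller of their ML excess over MaSC/basal and over LP cells, the first 12 fell into 2 kinds. The keratin genes *Krt1*, *Krt25* and *Krt77* led the ranking. With any 1 ML library left out, none of them could be tested against MaSC/basal cells. For *Krt1* and *Krt25* the rank rested on ML replicate 3, without which the excess over LP cells was 2.06 (adjusted p = 0.0430) and 1.94 (adjusted p = 0.0593). Their excess over LP cells (5.60 and 5.20) was also not called without LP replicate 1 or LP replicate 2. The other 9 were high in every ML library. *Tph1*, which catalyses the rate-limiting step of serotonin synthesis, was at 507, 357 and 246 CPM in ML cells, 2.13, 2.73 and 2.31 CPM in MaSC/basal cells and 22.7, 47.1 and 46.2 CPM in LP cells. *Aoc1*, an amine oxidase that degrades histamine and polyamines, was at 120, 37.3 and 29.5 CPM in ML cells and at no more than 4.77 CPM in any other sorted library. *Bmp3*, a secreted antagonist of bone morphogenetic proteins, was at 29.8, 30.6 and 40.1 CPM in ML cells and at no more than 5.31 CPM elsewhere. These genes were 7.28 ± 0.33, 6.90 ± 0.69 and 5.35 ± 0.32 higher in ML than in MaSC/basal cells, and 3.26, 3.75 and 3.26 higher than in LP cells. The remaining 6 were *Fxyd2*, a regulator of the sodium pump, the phosphatase gene *Ptpn5*, *Nrxn2*, the glycosyltransferase gene *Galnt9*, *Tmem86a* and *Cdcp3*, with fold changes of 5.35 to 7.43 against MaSC/basal cells and 3.27 to 3.76 against LP cells.

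The 12 largest differences in favour of ML cells, among genes with at least 5 CPM, contained *Prlr* and several secreted and mucosal defence genes. *Ido1*, which degrades tryptophan, was at 0.536, 0.299 and 0.422 CPM in MaSC/basal cells and 185, 70.9 and 85.7 CPM in ML cells (8.08 ± 0.48). *Reg3g*, an antibacterial lectin, was at 34.3, 15.7 and 48.8 CPM in ML cells (8.17 ± 0.54), and *Dmbt1*, a secreted scavenger receptor of mucosal surfaces, at 316, 120 and 314 CPM (7.96 ± 0.76). *Cxcl17*, a mucosal chemokine, and *Fgb*, the beta chain of fibrinogen, were higher by 7.51 ± 0.33 and 7.93 ± 0.27. The largest value, 8.28 ± 0.58, belonged to *Ang5*, a member of the angiogenin family. *Ang5* and *Cyp3a57* (7.64 ± 0.43) have close paralogs, and how reads shared between paralogs were assigned is not given in the sources used here, so their values are uncertain. *Ctsr*, *Ttc6*, *Cysrt1* and *Krt77* complete the 12.

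The shared luminal genes and the genes of luminal progenitors and alveoli were next placed beside each other. Of 26 shared luminal genes, 23 were higher in ML than in MaSC/basal cells, none was higher in MaSC/basal cells and the median was 4.11. The tight junction genes *Cldn3* (5.05 ± 0.25), *Cldn4* (5.75 ± 0.28) and *Cldn7* (5.37 ± 0.22) were among them. The ML and LP libraries overlapped for *Cldn3* and *Cldn7*, and for *Cldn4* the ML libraries lay above the LP libraries without being called (0.42, adjusted p = 0.207). The surface markers *Prom1*, *Ly6a* (Sca-1) and *Ly6d* on this list were among 8 members that exceeded LP cells as well. *Prom1* was at 17.3, 18.3 and 17.4 CPM in MaSC/basal cells, 434, 418 and 382 CPM in ML cells and 33.3, 65.9 and 86.7 CPM in LP cells, and the ML excess over LP cells was 2.73 for *Prom1*, 2.21 for *Ly6a* and 2.33 for *Ly6d*.

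Genes of progenitors and milk production were higher in ML than in MaSC/basal cells (19 of 24 tested, 1 lower, median 3.48) and lower in ML than in LP cells (18 of 25 tested, 1 higher, median -2.04). *Elf5*, the factor that directs alveolar fate, was at 5.48, 5.42 and 4.31 CPM in MaSC/basal cells, 84.5, 133 and 58.6 CPM in ML cells and 415, 332 and 387 CPM in LP cells. ML replicate 2 was the highest ML library for this list, with a summed level of 19460 CPM. ML replicate 1 had 8692 CPM and ML replicate 3 had 5525 CPM, and the sums lay between 2120 and 3094 CPM in MaSC/basal cells and between 37630 and 68210 CPM in LP cells. The casein gene *Csn2* was at 59.5, 585 and 15.3 CPM in ML cells and at 24.8, 15.8 and 21.2 CPM in MaSC/basal cells, so that the groups overlapped. Its call (3.43 ± 1.11, adjusted p = 0.0268) and that of *Csn1s2a* (2.84 ± 1.02, adjusted p = 0.0410) fell to fold changes of 0.92 and 0.43 without ML replicate 2 and were lost. The calls of both genes and of the milk fat globule gene *Mfge8* (1.06, adjusted p = 0.0460) were also lost without any 1 of the MaSC/basal replicates, with fold changes of 2.73 to 3.51 for the caseins. Among the hormone-sensing genes, ML replicate 2 was the lowest ML library for *Esr1*, *Pgr*, *Prlr* and *Foxa1*, the highest for *Esrrb* and *Wnt4* and between the others for *Areg*. The part of LP cells in these values was not tested. *Itgb3*, which encodes the CD61 protein used to separate ML from LP cells, was at 8.43, 32.9 and 4.29 CPM in ML cells and 233, 268 and 143 CPM in LP cells.

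On the MaSC/basal side, contractile genes showed the largest shift of any list. Of 25 members, 23 were higher in MaSC/basal cells and the median was -4.71. Smooth muscle myosin (*Myh11*) was at 2769, 4318 and 3754 CPM in MaSC/basal cells and 8.18, 12.7 and 35.5 CPM in ML cells (-7.59 ± 0.66). Calponin (*Cnn1*) was at 647, 1172 and 714 CPM against 1.73, 3.32 and 3.46 CPM (-8.21 ± 0.43), and the enteric smooth muscle actin gene *Actg2* was at 190, 268 and 214 CPM against 0.165, 0.605 and 0.693 CPM (-8.83 ± 0.43). In each of these genes all MaSC/basal libraries were at least 70-fold above every ML library. *Oxtr*, the oxytocin receptor that triggers milk ejection, was at 283, 680 and 243 CPM against 10.7, 12.5 and 8.23 CPM (-5.26 ± 0.46). The 2 exceptions, higher in ML cells, were *Ldb3* (2.58 ± 0.43) and *Fhl1* (0.73 ± 0.24, lost with 4 of the 6 libraries left out in turn and with the replicate block), both of which encode proteins of striated muscle. *Myocd*, the coactivator of smooth muscle genes, was low in both populations, at 1.12, 2.13 and 1.32 CPM against 0.0275, 0.0129 and 0.563 CPM (-3.39 ± 0.99), and its call was lost without MaSC/basal replicate 2. Its partner *Srf* was not called (-0.14 ± 0.25), except as lower in ML cells with the replicate block over the 9 sorted libraries (-0.58, adjusted p = 0.0487).

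The promoter windows were searched for the CArG box, the sequence bound by serum response factor, since contractile genes moved together. It was present in 1.63% of all 32851 windows, in 1.81% of the 27025 genes with a window and in 4 of the 22 contractile genes with a window (*Myl9*, *Cnn2*, *Ldb3* and *Fhl1*), of which *Ldb3* and *Fhl1* are the 2 genes higher in ML cells. The stretches are shown for *Myl9*, the regulatory light chain of myosin (-7.01 ± 0.56), and *Cnn2*, another calponin (-2.60 ± 0.16), with the box in capitals. They lie on the plus strand at chr2:156775273-156775342 and chr10:79988514-79988583, with the box beginning 161 and 56 bases before the start site.
Myl9: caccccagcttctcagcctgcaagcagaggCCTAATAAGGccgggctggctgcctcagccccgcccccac
Cnn2: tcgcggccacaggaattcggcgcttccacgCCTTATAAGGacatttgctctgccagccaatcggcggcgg
A window without the box says only that the letters are not within 250 bases before or 50 after that start.

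Genes of the basement membrane and of the hemidesmosomes that anchor cells to it were higher in MaSC/basal cells in 28 of 30 cases, with a median of -2.63. The type IV collagen genes *Col4a1* (4219, 4248 and 4582 CPM against 61.2, 73.6 and 46.2 CPM, -6.16 ± 0.26) and *Col4a2* (-6.77 ± 0.26) were among the members with the largest differences. So were the anchoring collagen gene *Col7a1* (1342, 1141 and 1648 CPM against 5.90, 7.92 and 7.23 CPM, -7.60 ± 0.26) and the laminin gene *Lama1* (-6.73 ± 0.49). The integrin genes differed less, with -1.83 ± 0.20 for *Itga6* and -1.23 ± 0.17 for *Itgb1*, which encodes the CD29 protein of the sort gates. *Lama5* (1.83 ± 0.25) and *Plec*, a cytoskeletal linker (1.36 ± 0.21), were the members higher in ML cells, and both also exceeded LP cells, by 1.84 and 1.26.

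Of 29 basal keratins and transcription factors, 16 were higher in MaSC/basal cells and 5 in ML cells (median -1.09). *Krt5* was at 2922, 3229 and 2781 CPM against 12.8, 14.1 and 134 CPM, *Krt17* at 2425, 2706 and 2811 CPM against 13.1, 13.6 and 45.5 CPM, and *Trp63*, which encodes the p63 factor that maintains basal cells, at 330, 428 and 214 CPM against 2.11, 1.83 and 23.6 CPM. For all 3 genes, ML replicate 3 was at least 3-fold above the other ML libraries and at least 9-fold below every MaSC/basal library. *Snai2*, a repressor of epithelial genes, did not show this excess in ML replicate 3 to the same degree, at 117, 81.4 and 117 CPM against 0.549, 0.502 and 1.21 CPM (-7.24 ± 0.35). The members higher in ML cells were *Krt6a* (437, 410 and 390 CPM against 42.1, 40.1 and 49.4 CPM, 3.24 ± 0.16), *Sox9*, *Meis1*, *Id3* and *Mrtfb*. Reads of keratin paralogs such as *Krt6a* may be shared with their neighbours.

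**Figure D3:**
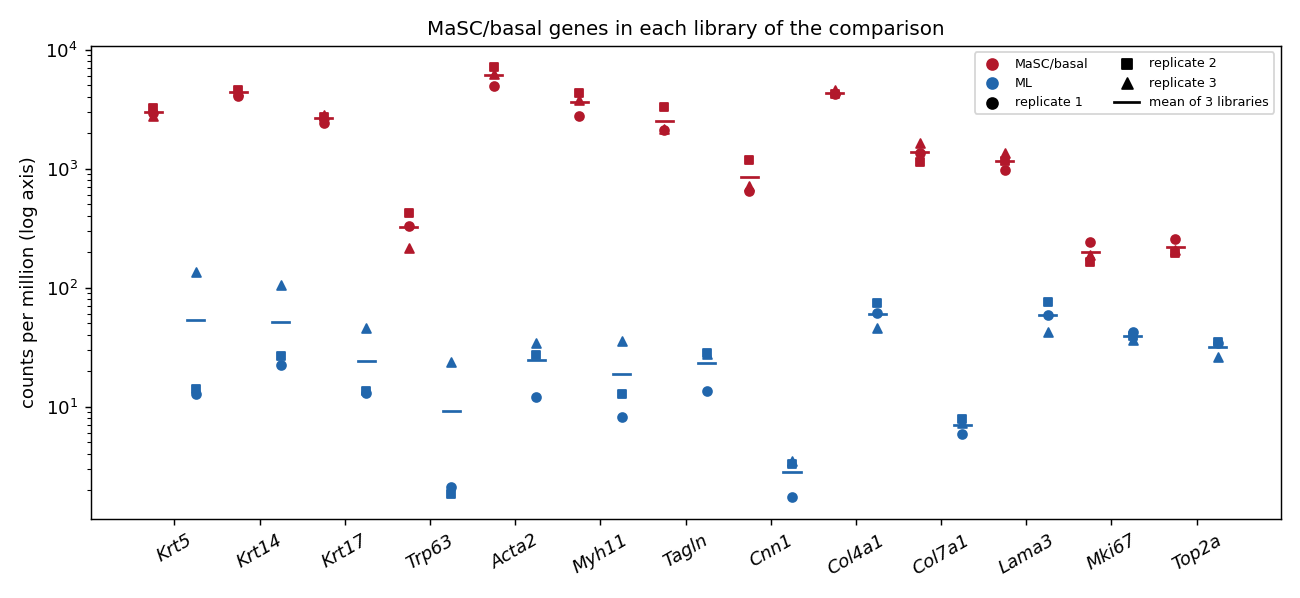
Level of 13 keratin, contractile, basement membrane and cell cycle genes in each MaSC/basal (red) and ML (blue) library, in CPM on a log axis, with a bar at the mean of 3 libraries. No gene overlaps between the populations, and ML replicate 3 (blue triangles) is the highest ML library for *Krt5*, *Krt14*, *Krt17*, *Trp63* and *Myh11*.

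Cell cycle genes were higher in MaSC/basal cells in 25 of 32 cases, with 3 higher in ML cells and a median of -1.78. *Mki67*, which encodes the proliferation antigen Ki-67, was at 241, 165 and 186 CPM in MaSC/basal cells and 42.6, 39.4 and 36.2 CPM in ML cells (-2.31 ± 0.17), and *Top2a* was lower in ML cells by 2.77 ± 0.17 on the log2 scale. LP cells were at the ML level, with 41.6, 30.8 and 38.1 CPM of *Mki67*, and 28 of the 32 genes were not called between ML and LP cells. The 3 genes higher in ML cells were the inhibitors of cyclin-dependent kinases *Cdkn2b* (2.23 ± 0.42), *Cdkn2a* (1.80 ± 0.56) and *Cdkn1b* (0.60 ± 0.22). The calls of *Cdkn2a* and *Cdkn1b* were lost with any MaSC/basal replicate left out, and that of *Cdkn1b* also without ML replicate 1 or ML replicate 3. With the batch as a replicate block both were lost, and 1 gene of the list was higher in ML cells and 22 in MaSC/basal cells. Another inhibitor gene, *Cdkn1c*, was lower in ML cells (-2.68 ± 0.22), and *Cdkn1a* was not called.

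Of the 12 largest differences in favour of MaSC/basal cells, 2 genes had no read in any ML library. *Cpa6*, a carboxypeptidase, was at 13.4, 10.3 and 11.3 CPM in MaSC/basal cells, at least 535-fold higher than the level that 3 reads over the 3 ML libraries would give, and *Speer4d* was at least 300-fold higher by the same measure. *Speer4d* and *Speer4e* belong to a family of near-identical copies, and their values are uncertain. *Sez6l*, *Glb1l3*, *Speer4e* and *Ptchd4* had 1 or 2 reads in the ML libraries together, and between 3.34 and 13.5 CPM in the MaSC/basal libraries. *Reln*, a secreted matrix glycoprotein, was at 538, 602 and 817 CPM against 0.741, 2.77 and 0.779 CPM (-8.71 ± 0.59). *Kcnmb1*, a subunit of the smooth muscle potassium channel (-8.83 ± 0.33), *Sorcs1* (-8.66 ± 0.37), *Cntn2*, a neural adhesion molecule (-8.41 ± 0.41), *Ccdc187* and *Actg2* complete the 12.

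Transcripts of the hair follicle were present in ML replicate 3. *Krt25*, a keratin of the inner root sheath, was at 22.0 CPM in that library, from 507 reads, and at 0.714 and 0.888 CPM in the other ML libraries, from 26 and 69 reads. It was at 0.0670 to 0.112 CPM in MaSC/basal cells and 0.0897 to 0.562 CPM in LP cells. *Krt71*, another keratin of the inner root sheath, was at 24.5 CPM against 0.714 and 0.888 CPM in the other ML libraries, and *Krt28*, *Krt27* and *Krt75* were at 9.57, 6.93 and 9.66 CPM against at most 0.399 CPM. The hair cortex keratin *Krt35* was at 13.0 CPM against 0.220 and 0.180 CPM. LP replicate 3, made in the same batch, had at most 0.613 CPM of any of these 6 keratins. In MaSC/basal cells *Krt71*, *Krt28* and *Krt75* were not near 0, at 5.07 to 5.77, 1.36 to 2.55 and 1.91 to 2.92 CPM.

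Markers of the epidermis followed the same library. *Krt1* and *Krt10*, the keratin pair of differentiating epidermis, were at 49.8 and 87.7 CPM in ML replicate 3 against 1.42 to 1.68 CPM and 3.32 to 3.50 CPM in the other ML libraries, and *Dsg1a*, a desmosomal cadherin, was at 16.2 CPM against at most 0.450 CPM. The summed level of the 20 epidermal genes was 283 CPM in ML replicate 3, 101 and 107 CPM in the other ML libraries and 46.0 to 55.4 CPM in MaSC/basal cells. Of 13 epidermal genes tested, 6 were higher in ML and 3 in MaSC/basal cells, and without ML replicate 3 the counts were 3 and 3. Fewer genes were tested without this library, since *Krt1* and *Krt77* fell under the expression filter, so the change is not all calls lost on testing. The summed level of the 47 hair follicle genes was 415 CPM in ML replicate 3 and 325 and 235 CPM in the other ML libraries, most of which came from 3 genes that are not confined to hair (*Msx2*, *Dsc2* and *Crym*) and were high in every ML library. Of the 47 genes, 6 had no read in any MaSC/basal or ML library, all of them keratin-associated protein genes. The melanocyte genes *Tyr*, *Tyrp1* and *Mlana* were at 0 in ML replicate 3, and *Dct* was at 1.17 CPM there against at most 0.067 CPM in the other 5 libraries.

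These transcripts bear on the comparison with MaSC/basal cells. Of 20 hair follicle genes tested, 6 were higher in ML cells and 2 in MaSC/basal cells. Without ML replicate 3 the counts were 3 and 7, of fewer genes tested, since *Krt25* fell under the expression filter. With the batch as a replicate block the counts were 6 and 8. The fold change of *Krt71* was 0.67 ± 1.12 with all libraries and -2.71 without ML replicate 3, *Krt28* moved from 0.81 to -2.56 and *Krt75* from 0.43 to -3.46. For *Krt10* it was 2.53 ± 1.15 with all libraries and -0.65 without this library, and neither was called, whereas it was called as higher in ML cells without ML replicate 1 (3.09) or ML replicate 2 (3.11), and as lower in ML cells with the batch as a replicate block (-0.69, adjusted p = 0.0396). *Krt1* (6.18 ± 1.55) and *Krt25* (6.32 ± 1.52) passed as higher in ML cells with all libraries. Like *Krt77*, they were over 0.5 CPM in the ML libraries but in no MaSC/basal library. Leaving out any 1 ML library therefore put all 3 under the expression filter, which says nothing about ML replicate 3 in particular. *Krt77* was at 8.84, 1.98 and 23.4 CPM in ML cells, at most 0.0918 CPM in MaSC/basal cells and at most 1.12 CPM in LP cells. Against LP cells, where it could be tested without ML replicate 3, it was higher in ML cells by 3.07 (adjusted p = 0.0149). Most of the hormone-sensing genes named here did not depend on ML replicate 3. Without it, the 3 receptors *Esr1*, *Pgr* and *Prlr* and the factors *Foxa1*, *Cited1* and *Myb* kept their calls. *Esrrb* then fell under the expression filter, so its dependence on this library was not tested against MaSC/basal cells. Against LP cells *Esrrb* was tested without ML replicate 3 and kept its call. The part of skin cells in the basal keratin and p63 levels of ML replicate 3 was not tested.

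**Figure D4:**
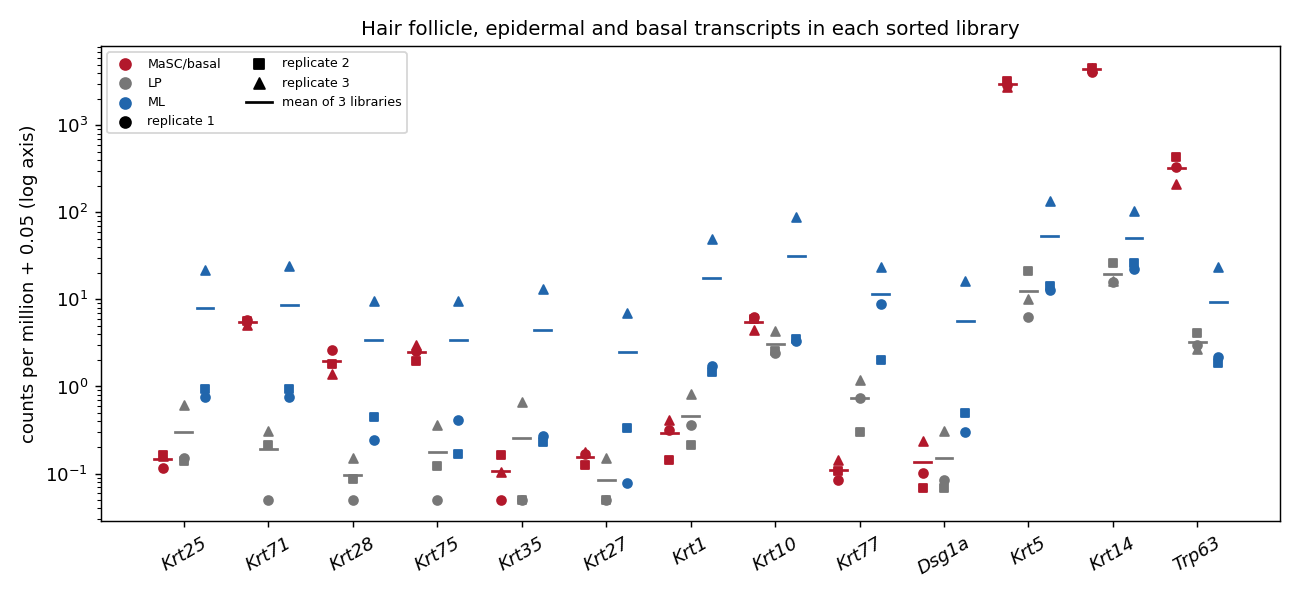
Level of 6 hair follicle keratins, 4 epidermal genes and 3 basal genes in each MaSC/basal (red), LP (grey) and ML (blue) library, in CPM plus 0.05 on a log axis, with a bar at the mean of 3 libraries. ML replicate 3 (blue triangles) is the highest ML library for every gene shown, and *Krt71*, *Krt28* and *Krt75* in MaSC/basal cells lie above ML replicates 1 and 2.

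Markers of other cell types that a sort of mammary cells can hold were low or moderate. The leukocyte list summed to 16.9 to 21.9 CPM in MaSC/basal and 9.31 to 18.8 CPM in ML libraries, with *Ptprc* (CD45) at no more than 1.62 CPM, and 1 of its 9 tested genes was called. Endothelial genes summed to 99.3 to 210 CPM and 109 to 167 CPM, and 3 of 12 were higher in MaSC/basal cells, or 8 with the replicate block. The 1 endothelial gene higher in ML cells was *Vwf* (91.2, 104 and 86.5 CPM against 14.4, 20.8 and 45.1 CPM), while *Pecam1* was not called (-1.07) but was higher in MaSC/basal cells with the batch as a replicate block (-1.52, adjusted p = 0.0360). Fibroblast genes summed to 751 to 997 CPM and 411 to 971 CPM, and ML replicate 1 was the highest ML library for *Col1a1*, at 121 CPM against 28.3 and 27.7 CPM. *Col1a1* was not called (-0.95), and without ML replicate 1 it was higher in MaSC/basal cells (-1.98). Adipocyte genes summed to 38.3 to 82.7 CPM and 25.8 to 45.9 CPM, skeletal muscle genes to at most 11.9 CPM, erythroid genes to at most 12.3 CPM and melanocyte genes, nearly all of it *Sox10*, to 127 to 155 CPM and 46.9 to 181 CPM. Schwann cell genes summed to 292 to 346 CPM and 162 to 333 CPM. In the fibroblast list, 1 of 12 tested genes was higher in ML and 2 in MaSC/basal cells. The counts were 1 and 1 of 4 adipocyte genes, 2 and 1 of 6 skeletal muscle genes, and 2 and 0 of 3 erythroid genes. They were 1 and 0 of 3 melanocyte genes and 1 and 2 of 6 Schwann cell genes. These counts are to be read against 28.9% and 28.7% of all genes tested, and few members were tested. Immediate early genes, which respond to cell dissociation, showed no common direction, with 6 of 20 higher in ML cells and 4 in MaSC/basal cells. They varied within the MaSC/basal group, with summed levels of 17740, 24970 and 10070 CPM, against 30200, 20780 and 30420 CPM in ML cells.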

How the data were processed

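RNA-seq libraries of sorted mouse mammary cells were analysed from the read counts per gene that the authors deposited, 1 count table per library. Per the labels and the study's methods, TruSeq libraries were sequenced as single-end reads, base-called with CASAVA 1.8.0, aligned to mm10 (GRCm38) with Rsubread and summarised over Entrez genes with featureCounts. The submitters' processing notes also name edgeR 3.6.2 and limma 3.20.5. How reads that map to several genes were handled is not given in the sources used here. The 3 MaSC/basal and 3 ML libraries were grouped by their labels, and the 3 LP libraries entered only the comparison with ML cells. The remaining 2 libraries were not used except in an alternative that fitted all 11.

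Genes over 0.5 CPM, before TMM scaling, in at least 3 of the libraries compared were kept. On the scale of the CPM levels, with TMM over the 9 sorted libraries, 0.5 CPM stood for 11.5 to 38.9 reads in the 6 libraries. Counts were then scaled by TMM. Groups were compared with edgeR 4.0.16 (R 4.3.3), by the quasi-likelihood test with Benjamini-Hochberg adjustment over all genes tested. Fold changes carry edgeR's default prior count. A prior count of 2 entered only the log2 CPM behind the same-batch deviations given below. The series' design text calls the 3 samples of a population independent. RPKM were computed from the counts and the deposited gene lengths. The procedure was tested on simulated data. Alternatives were other scalings, filters and sample sets, limma 3.58.1 (voom), DESeq2 1.42.0, the library batch as a block, and leaving out each library. The list counts under each alternative were added after the data were seen. Library batch pairs samples by the labels, and same-batch deviations from the group means correlated between -0.125 and 0.532.

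Named genes were the 4 markers, the 12 genes with the largest difference in each direction (adjusted p under 0.001, at least 5 CPM in the higher population, no overlap), the 12 genes with the largest excess of ML over both other populations, and members of the gene lists. The comparison, the members and the lists were chosen with earlier results of these data known. Promoter windows and their sequences are from RefSeq (GRCm38.p6). The values of 1 hormone receptor gene are not reported here.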

Additional observations from a re-analysis of the deposited data

How the results depend on the processing

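Between 6791 and 9535 genes were called between MaSC/basal and ML cells over all alternatives. With the library batch as a replicate block, 3702 genes were higher in ML cells and 3752 in MaSC/basal cells. Under the stricter thresholds, leaving out 1 library gave 892 to 1397 genes higher in MaSC/basal cells, with the lowest counts without MaSC/basal replicate 2 (892), replicate 1 (909) or replicate 3 (942). Between ML and LP cells, leaving out 1 library gave 3077 to 4729 genes, 1756 to 2504 of them higher in ML and 1321 to 2225 higher in LP cells, with the fewest without ML replicate 1. Fewer libraries enter each of these fits. Without TMM, 3791 genes were higher in ML and 1569 in LP cells.

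Some fold changes between ML and MaSC/basal cells changed sign, and the cause was not tested. Leaving out 1 library gave -0.04 to 0.11 for *Ccnd1*, -0.36 to 0.15 for *Srf*, -0.65 to 3.11 for *Krt10*, -2.56 to 1.41 for *Krt28*, -2.71 to 1.26 for *Krt71* and -3.46 to 1.08 for *Krt75*. With the replicate block, *Krt10*, *Krt28*, *Krt71* and *Krt75* were at -0.69, -2.57, -2.74 and -3.61, with the block over the 9 sorted libraries at -0.02, -2.44, -2.42 and -3.25, and the last 3 were at -1.33, -1.52 and -2.20 by voom. Against LP cells, fold changes near 0 changed sign without TMM, to 0.13 for *Krt18*, 0.06 for *Gata3*, 0.06 for *Cldn3* and 0.15 for *Cldn7*, and *Cldn7* was 0.01 with every gene with at least 1 count. Leaving out 1 library gave -0.11 to 0.06, -0.22 to 0.01, -0.28 to 0.04 and -0.18 to 0.12 for these genes. With 3 libraries per population, a difference within the spread between libraries could not be detected.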
